A study of Nematostella vectensis with 66 samples.

Results

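Adult starlet sea anemones, Nematostella vectensis, fell into 2 states by the gene model NVE20622, and single animals high in it were compared with single animals low in it. A library was taken as high where NVE20622 had a raw count of at least 100, as low where it had at most 10, and was left out in between. By this rule 13 single animals were high and 23 were low, which makes 36 of the 37 single animals and 36 of the 66 libraries of the series. The states are read from NVE20622 itself and are no treatment, so a p-value given for another gene model tests its association with the NVE20622 state among these animals.

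The high animals and the low animals shared every condition that the labels give, apart from the hour and the replicate letter. All were laboratory-maintained adults whose stock came from a Massachusetts salt marsh, and all were brought to a field-like salinity of 30 ppt before being kept in mesh pens in a tidally restricted marsh pool. RNA of the whole organism was taken at each of 10 hours from ZT3 to ZT12, where ZT counts hours in the light-dark day. Single animals carry the letters A to D within an hour, and the other 29 libraries are pools of 2 animals each. The labels give neither the sex, size, feeding state nor reproductive state of an animal, nor the pen it came from. At ZT4 the library with the letter D is labelled as a pool, against the letters of the stated protocol, and the label was followed.

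Nematostella is a burrowing cnidarian of estuaries, a sister lineage to the bilaterian animals, and a laboratory model for the evolution of development, the nervous system and daily rhythms. Its adults have separate sexes that look alike from outside, shed gametes formed in the mesenteries of the gut cavity, and can also divide asexually. A whole-animal library therefore mixes the RNA of all of its tissues, and fewer cells of a type cannot be told apart from less RNA per cell.

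The deposited table holds whole-number read counts for 24265 gene models under NVE identifiers. The files do not pair these identifiers with names, and 0 of them matched the reference table used here, so no function can be given for any of them. Library totals ran from 526346 to 909746 counts in high single animals and from 251647 to 808297 counts in low single animals. Of all gene models, 10915 beside NVE20622 passed a filter on low counts and were tested. In earlier results of these data 4 libraries stood apart from the rest, of which the single animals are ZT3 individual B, which was high, and ZT4 individual C, which was low. The main counts below are therefore also given without those 4.

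The values of NVE20622 chose the states and are given as a description. NVE20622 stood at 323 CPM, a count scaled to its library's total and normalisation factor, in the lowest of the 13 high single animals, at 840 CPM in the median one and at 2970 CPM in the highest. In the 23 low single animals it had a lowest value of 0 CPM, a median of 1.76 CPM and a highest value of 10.2 CPM. Few animals lay near the thresholds. The lowest high animals were ZT11 individual A with 167 counts and ZT9 individual C with 330 counts, and the highest low animals were ZT8 individual B with 7 counts and ZT12 individual B with 6 counts. The single animal between the thresholds, ZT8 individual C, had 26 counts of NVE20622.

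NVE9958, the gene model that marks the state together with NVE20622, followed the same division. Its level was 170 CPM in the lowest, 462 CPM in the median and 1640 CPM in the highest high single animal. In low single animals the lowest value was 0 CPM, the median 1.64 CPM and the highest 8.65 CPM, and no low animal had more than 3 counts of it. Every high animal thus lay above every low animal. The count of NVE9958 was 0.472 to 0.923 times that of NVE20622 across the high single animals, with a median of 0.558. The same cuts applied to NVE9958 put 35 of the 37 single animals and 29 of the 29 pools in the same class.

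**Figure D1:**
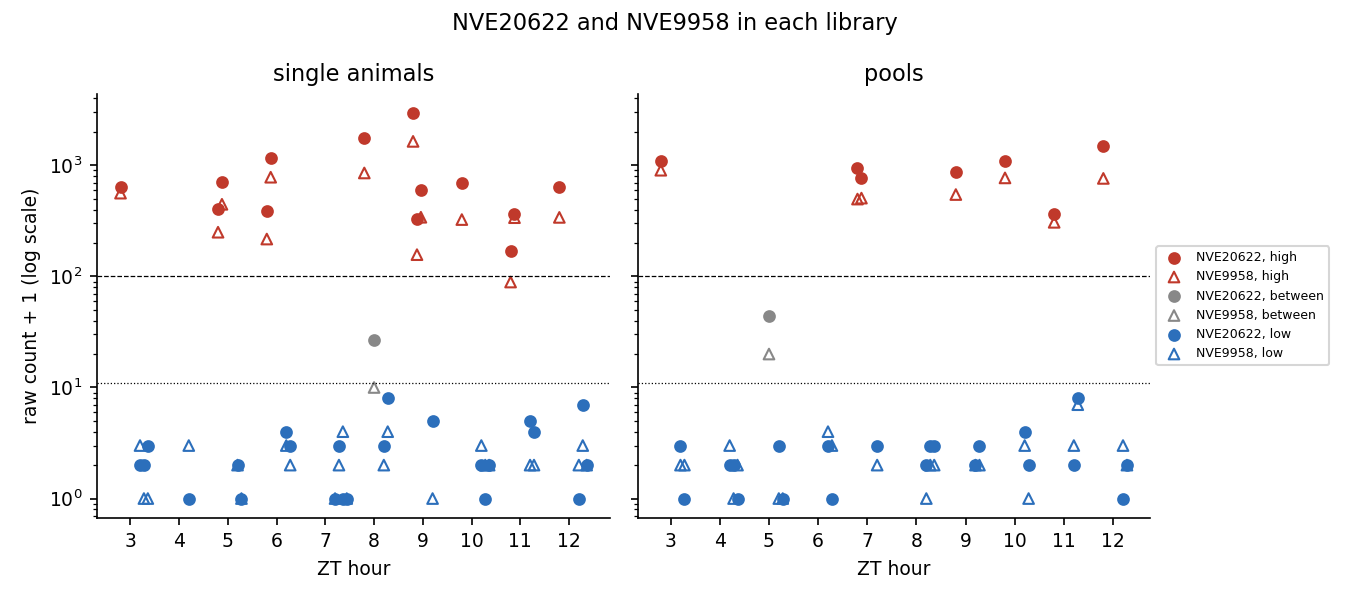
Raw counts plus 1 (log scale) of NVE20622 (filled circles) and NVE9958 (open triangles) in each library by ZT hour, with single animals on the left and pools on the right. Red stands for high, grey for between and blue for low libraries, and the dashed and dotted lines mark 100 and 10 counts of NVE20622. For NVE20622, only ZT8 individual C among single animals and ZT5 pooled G among pools lie between the lines.

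High and low animals occurred side by side through most of the day. Among single animals, 13 of 37 were high (35.1%, exact Clopper-Pearson 95% interval 20.2 to 52.5%, which covers counting error only). ZT9 had 3 high animals against 1 low one, and ZT5, ZT6 and ZT11 had 2 of each. ZT3, ZT10 and ZT12 had 1 high animal against 3 low ones, and ZT8 had 1 high animal against 2 low ones beside the one in between. All 4 single animals of ZT7 were low, as was the only single animal of ZT4, so 8 hours held both states. The mean hour was ZT 8.0 ± 2.77 in high animals and ZT 7.65 ± 2.99 in low animals (SD, n = 13 and 23), a difference of 0.348 h (two-sided permutation test, p = 0.765).

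The same cuts were applied to the pools, which were not used to choose the animals. With them 7 of 29 pools were high (24.1%, exact interval 10.3 to 43.5%), 21 were low and ZT5 pooled G was in between with 43 counts. If animals entered pools of 2 independently at the share of high single animals, 57.9% of pools would hold at least 1 high animal, an arithmetic value above the 24.1% observed that takes no account of the error of the single-animal share. No test of this difference was made. NVE20622 had 636, 1010 and 2030 CPM in the lowest, median and highest high pool, against 0, 1.86 and 13 CPM in the low pools. NVE9958 had 527, 594 and 1250 CPM in the lowest, median and highest high pool, against 0, 1.59 and 11.1 CPM in the low pools. The cuts fix the gap in NVE20622. NVE9958 did not set the states of pools and also showed no overlap. It was chosen as a marker with earlier results of these data known, so its values are a description.

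The libraries of high animals were also deeper and spread over more gene models. With NVE20622 left out, high single animals had 706300 ± 108400 counts and low ones 605700 ± 123700 counts (SD, n = 13 and 23), a difference of 100600 counts (two-sided permutation test, 100000 resamples, adjusted p = 0.0252 over 4 measures). Without ZT9 individual B, the animal with the most NVE20622, the adjusted p of this difference was 0.0614. After every library was thinned to 251647 counts, high animals had 14830 ± 516 gene models with a count and low animals 14330 ± 354. This difference of 500 gene models passed the test (permutation test, adjusted p = 0.00358), and 10 of 13 high animals lay above the mean of the low ones. Outside the gene models called higher in high animals, described below, the means were 13820 ± 510 and 13600 ± 337. That gap was not tested. The 100 most abundant gene models held 28.8 ± 2.66% of counts in high animals and 31.9 ± 2.59% in low animals, 3.09 percentage points less in high animals (permutation test, adjusted p = 0.00358). With every library thinned to at most the second lowest total, the test of gene models described next gave 930 higher and 165 lower in high animals, against 1042 and 191 at full depth.

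High single animals differed from low ones mainly by gene models that were higher. With the hour as a factor, 1042 gene models were higher in high animals, 9.55% of the 10915 tested, and 191 were lower, 1.75% (edgeR's quasi-likelihood test, Benjamini-Hochberg adjusted p below 0.05). NVE9958 is 1 of the 1042 and also 1 of the gene models described below as separated. Without the 4 libraries that stood apart, 909 were higher and 150 lower, and 900 of the 909 were among the 1042. The count of higher gene models was 620 with a filter by state, which tested 7857 gene models. The count of lower gene models was 91 with no filter on low counts. It also depended on single animals, with 115 without ZT8 individual D, 116 without ZT6 individual D and 127 without ZT3 individual B, all of them high. The higher gene models had a median log2 change of 1.39 (quartiles 0.84 and 3.92), a 2.61-fold higher level in high animals. The lower ones had a median log2 change of -0.49 (quartiles -0.39 and -0.69), which is 0.711 times the level of low animals. The median over all gene models tested was -0.04.

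The higher gene models ran from small shifts to near on-off differences. Of the 1042, 362 were less than 2-fold higher, 276 were 2-fold to 4-fold higher, 154 were 4-fold to 16-fold higher and 250 were at least 16-fold higher in high animals. In the first of these bands the median gene model had a mean of 52.1 CPM in high animals against 32.5 CPM in low animals. In the last band it had 40.4 CPM in high animals against 0.499 CPM in low animals. Of the 191 lower gene models, 12 were at least 2-fold lower and 0 were at least 16-fold lower. The filter on low counts took all libraries together, without regard to state. Gene models near 0 CPM in all low libraries could therefore pass it only through high libraries. In the same way, those near 0 CPM in all high libraries could pass only through low ones. The sizes of the bands are thus a description.

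For 209 of the tested gene models, 1.91%, every high single animal lay above every low one, and for 0 of them, 0%, every high animal lay below every low one. These 209 all passed the adjusted threshold, had log2 changes of 1.23 to 8.86 with a median of 5.9, and are called the separated gene models here. They were picked from the values themselves, so their levels in single animals are a description.

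The separated gene models together took 0.637% of counts in the lowest high single animal, 1.28% in the median one and 6.12% in the highest. In low single animals they took 0.0584% at the lowest, 0.0794% at the median and 0.134% at the highest. All 209 had a count in every high animal, and between 61 and 134 of them had a count in a low animal. The ends of the range were those of NVE20622, since ZT11 individual A had both the least NVE20622 (323 CPM) and the smallest share (0.637%), and ZT9 individual B had the most of both (2970 CPM and 6.12%). The median SD of a separated gene model, on the log2(CPM + 1) scale, was 1.06 among high animals and 0.674 among low animals, against 0.551 and 0.576 over all gene models tested.

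Low animals with the largest share stood closest to the threshold on NVE20622 counts. ZT12 individual B, with 6 counts, had 0.134% of its counts and 131 of the separated gene models, and ZT8 individual B, with 7 counts, had 0.129% and 134 of them. ZT8 individual C, between the thresholds, had 0.127% and 157 of them, a share inside the range of low animals. Relative to the mean level of each gene model in high single animals, its median separated gene model stood at 3.82%.

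**Figure D2:**
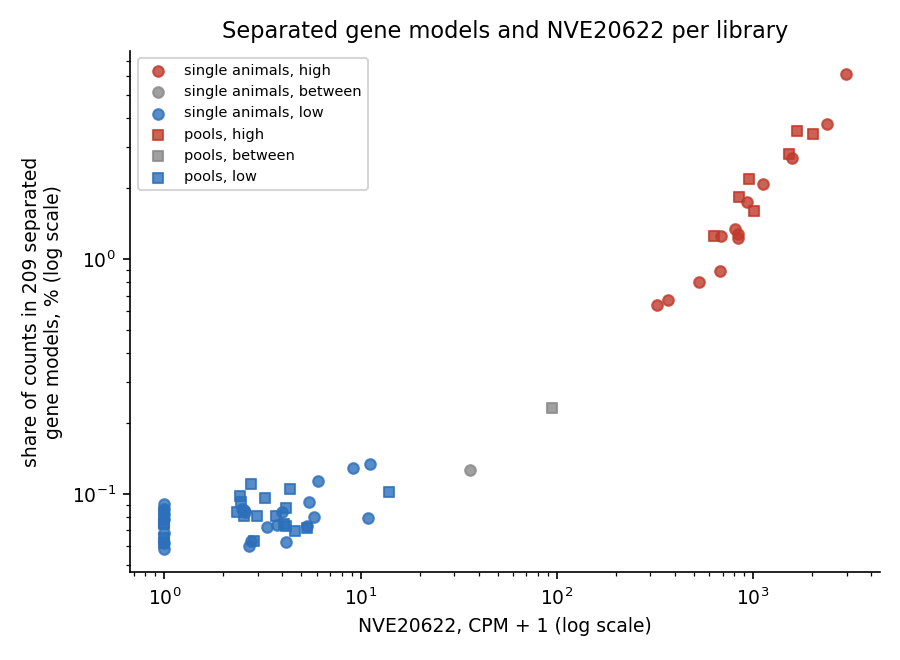
Share of each library's counts in the 209 separated gene models (percent, log scale) against the level of NVE20622 in that library (CPM plus 1, log scale), with circles for single animals and squares for pools. Single animals at the high end hold 0.637 to 6.12% and those at the low end 0.0584 to 0.134%, and ZT5 pooled G, the grey square, lies between at 0.232%.

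The gene model with the smallest p among those higher in high single animals was NVE4527. It had 58, 161 and 731 CPM in the lowest, median and highest high animal, and in low animals a median of 0 CPM and a highest value of 2.33 CPM, with 17 of 23 at 0. The groups did not overlap. Its log2 change was 8.13 ± 0.394 (SE, edgeR's quasi-likelihood test, adjusted p = 2.35e-15). NVE7197 had 16.1, 42.2 and 194 CPM in the lowest, median and highest high animal, against a median of 0 CPM and a highest value of 1.57 CPM in low animals, with 20 of 23 at 0. Its groups did not overlap either, and its log2 change was 7.55 ± 0.45 (SE, edgeR, adjusted p = 1.06e-14). Fitted changes of this size depend on how counts of 0 are treated.

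The gene models lower in high animals showed smaller and overlapping differences. NVE10739 had 20, 33.3 and 54.4 CPM in the lowest, median and highest high animal, against 34.3, 50.5 and 89.1 CPM in low animals. NVE22133 had 5.0, 10.6 and 24.6 CPM in high animals, against 10.9, 27.1 and 54.4 CPM in low animals. For each of them 7 of 13 high animals lay below every low animal and the rest overlapped with the low group. The log2 change was -0.68 ± 0.131 for NVE10739 (SE, edgeR, adjusted p = 0.000207) and -1.14 ± 0.225 for NVE22133 (SE, edgeR, adjusted p = 0.000261).

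The direction of the differences was also read within each hour that held both states. The mean of high animals was above that of low animals in all 8 such hours for 760 of the 1042 higher gene models (72.9%), against 831 of all tested (7.61%). It was below in all 8 hours for 87 of the 191 lower ones (45.5%), against 200 of all tested (1.83%). NVE10739 and NVE22133 had the lower mean in high animals in all 8. The gene lists come from the same animals, so these counts describe how evenly the hours contributed.

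Over all 24265 gene models, 10 had a count in every high single animal and in none of the 23 low ones, and 0 had the reverse. These rules are not alike, as the first asks for a count in 13 animals and the reverse for a count in 23. Of the 10, 3 were too low for the filter. In pools, 8 of the 10 had a count in every high pool, 6 were at 0 in all low pools, and 5 did both. Over all 24265 gene models, 31 had a count in every high pool and in no low pool. A further rule, a count in at least 5 high single animals and in no low one, was met by 63 gene models. The reverse of this rule was not counted.

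The pools, tested apart with the same gene models, gave 1236 gene models higher in high pools, 11.3% of those tested, and 419 lower, 3.84% (edgeR's quasi-likelihood test, adjusted p below 0.05, 7 high and 21 low pools). The fit took the hour as a factor. Low pools of ZT4, ZT5, ZT6 and ZT8, hours with no high pool, therefore do not inform the size of the difference. The lower count was 155 without ZT10 pooled F, 161 without ZT7 pooled E, the only low pool of its hour, and 272 without ZT10 pooled E. It was 251 with no filter and 257 with NVE20622 split at 30 counts. The pools among the libraries that stood apart are ZT4 pooled E and ZT5 pooled E, low pools of hours with no high pool. Without them the fit gave 1236 higher and 415 lower. They do not inform the difference, so these near-equal counts say nothing on how far it rests on them. Of the 1042 gene models higher in high single animals, 1031 had a positive change in pools, against 46.4% of all gene models tested. The test called 921 of them in pools, which is 88.4% of the list from single animals, against 11.3% of all tested, and 74.5% of the list from pools. None was called in the opposite direction. Their median log2 change was 1.66 in pools and 1.39 in single animals.

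The recurrence in pools went with the size of the change in single animals. Pools called 97.2% of the gene models at least 16-fold higher in high single animals, 96.8% of those 4-fold to 16-fold higher, 90.9% of those 2-fold to 4-fold higher and 76.8% of those under 2-fold. All 209 separated gene models were called in pools. For 201 of them every high pool also lay above every low pool, while 433 of all tested (3.97%) showed this and 0 (0%) showed the reverse. The separated gene models held 1.25, 2.19 and 3.53% of counts in the lowest, median and highest high pool, against 0.0618, 0.0804 and 0.11% in the low pools.

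The lower gene models were read in pools in the same way. Of the 191, 177 had a negative change in pools, against 53.6% of all gene models tested, and 35 were called lower there. That is 18.3% of the list from single animals, against 3.84% of all tested, and 8.35% of the list from pools. Again none was called in the opposite direction, and the median log2 change was -0.38 in pools and -0.49 in single animals. Within the 6 hours with both kinds of pool, 824 of the 1042 were higher in high pools in every hour (79.1%, against 11% of all tested), and 55 of the 191 were lower in every hour (28.8%, against 6.1% of all tested).

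**Figure D3:**
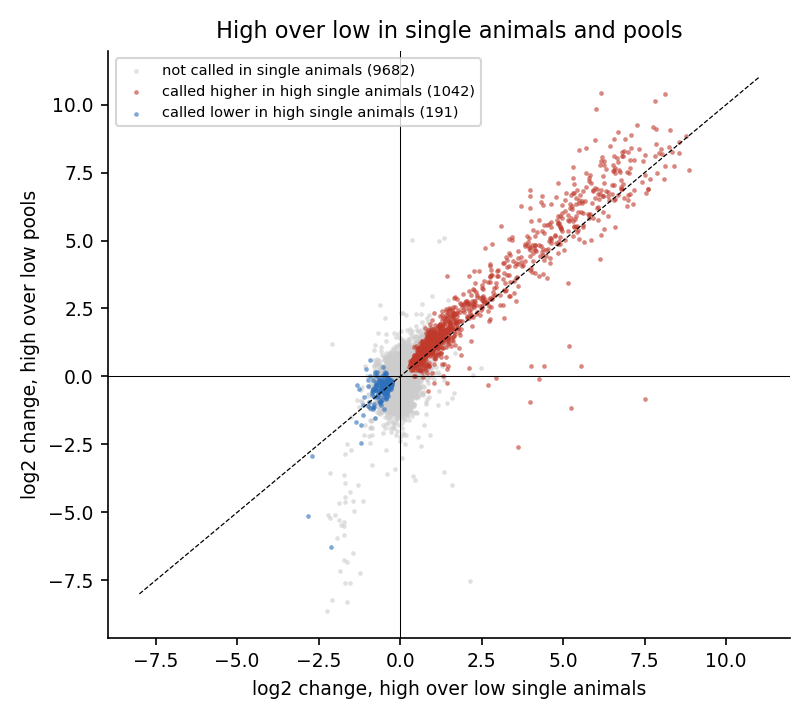
Log2 change of high over low in pools against that in single animals for each of the 10915 tested gene models, with red for the 1042 called higher and blue for the 191 called lower in high single animals. The dashed line marks equal changes, and 1031 of the red points lie above 0 on the pool axis.

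The named gene models from single animals had like values in pools. NVE4527 had 116, 180 and 528 CPM in the lowest, median and highest high pool, against a median of 0 CPM and a highest value of 1.83 CPM in low pools (log2 change 10.38, edgeR, adjusted p = 4.19e-10). NVE7197 had 34, 53.4 and 111 CPM in high pools, against a median of 0 CPM and a highest value of 1.83 CPM in low pools (log2 change 6.73, edgeR, adjusted p = 1.46e-11). NVE10739 and NVE22133 were lower in high pools by log2 changes of -0.66 and -1.04 (edgeR, adjusted p = 0.0102 and 0.00775).

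In the other direction, the gene models with the smallest p in pools were read in single animals. NVE5911 had 276, 586 and 1180 CPM in the lowest, median and highest high pool, against 1.5, 7.96 and 14.2 CPM in low pools. In single animals it had 72.2, 320 and 1110 CPM in high animals, against 4.32, 9.9 and 71.4 CPM in low animals, so the lowest high animal lay just above the highest low animal. Its log2 change was 6.59 ± 0.266 in pools (SE, edgeR, adjusted p = 2.79e-15) and 4.8 in single animals (adjusted p = 1.81e-09). NVE637 had 86.7, 151 and 325 CPM in high pools, against 1.42, 7.26 and 13.7 CPM in low pools. In single animals its values were 21.1, 96.5 and 344 CPM in high animals, against 1.57, 6.56 and 25.5 CPM in low animals, and 11 of 13 high animals lay above every low one.

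NVE20304 had 4.05, 11.1 and 20.8 CPM in the lowest, median and highest high pool, against 16.9, 31.1 and 46 CPM in low pools. In single animals it had 2.7, 21.9 and 57.8 CPM in high animals, against 15.8, 34.4 and 153 CPM in low animals, with much overlap. It was lower in high libraries of both kinds, by a log2 change of -1.52 in pools and -0.79 in single animals (edgeR, adjusted p = 0.000168 and 0.0412). NVE16074 was lower in high pools (log2 change -1.09 ± 0.194, SE, edgeR, adjusted p = 0.000142). In single animals it had 84.3, 120 and 207 CPM in high animals, against 71.7, 157 and 286 CPM in low animals, and the difference did not pass the test (log2 change -0.2 ± 0.189, SE, adjusted p = 0.602).

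**Figure D4:**
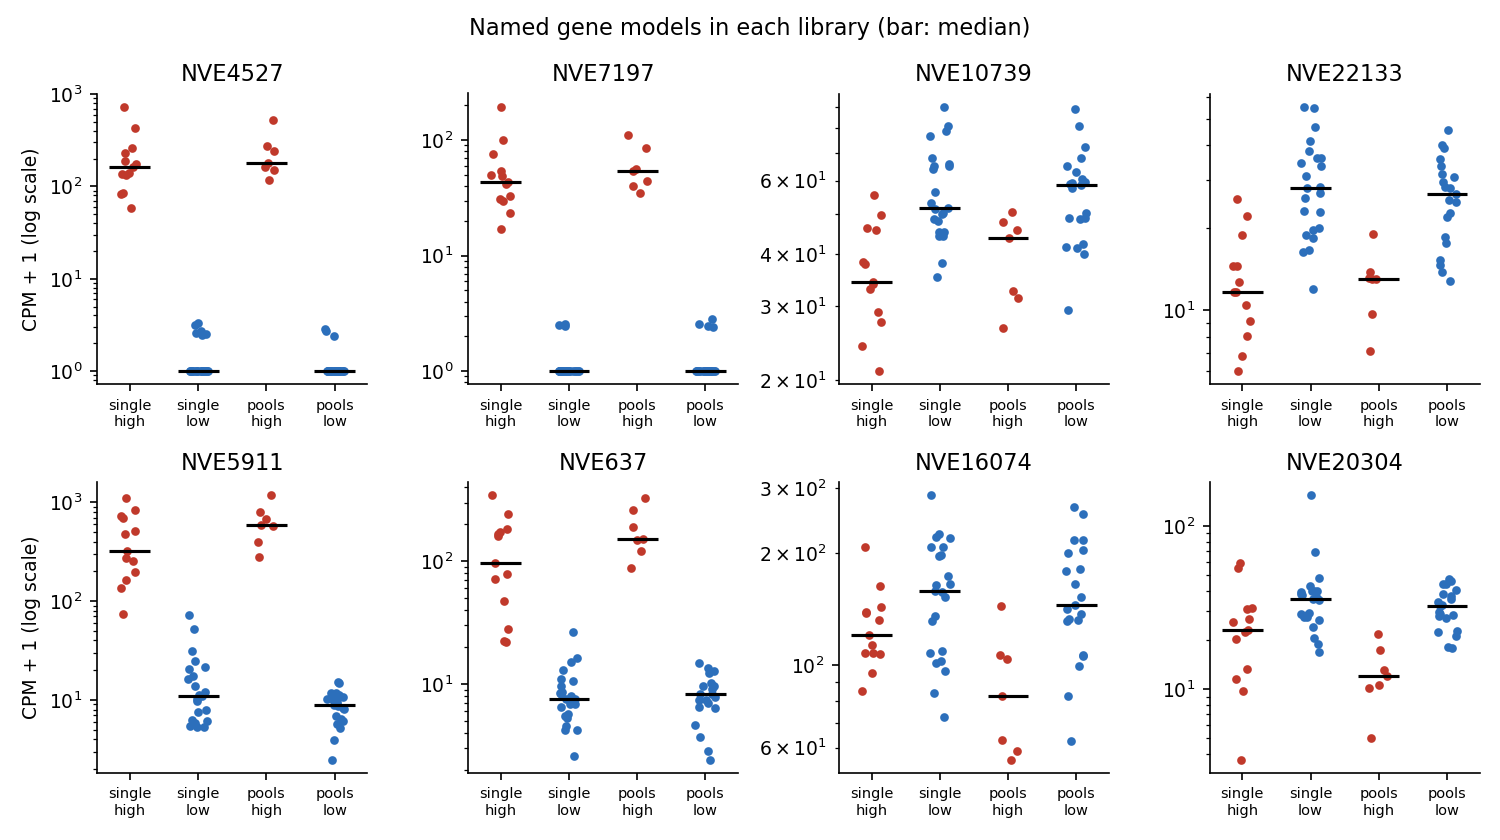
Levels (CPM plus 1, log scale, each panel with its own range) of the 8 named gene models in each high and low library, for single animals and for pools, with red for high, blue for low and a bar at the median. NVE4527, NVE7197 and NVE5911 separate the states in both kinds of library, while NVE10739, NVE22133, NVE16074 and NVE20304 overlap.

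Gene models far lower in high pools were unevenly spread among single animals. The fit of pools put 30 gene models at a log2 change below -4, with 17 of them past the adjusted threshold, and this group was chosen after the values were seen. The 30 together took 0.000834, 0.00196 and 0.0032% of counts in the lowest, median and highest high pool, against 0.000618, 0.0726 and 0.766% in the low pools. Of the 21 low pools, 19 lay above every high pool, and the other 2 lay below the lowest high pool. The cut used pool values alone, but the changes in single animals had also been seen when the group was chosen. The values in single animals are therefore a description. In single animals the 30 took 0.00121, 0.00248 and 0.12% of counts in the lowest, median and highest high animal. Low animals had 0.000473, 0.0822 and 0.466%. Among high animals 6 of 13 lay above every high pool, as did 20 of 23 low animals, and 9 low animals lay above every high one. The change in single animals was negative for 29 of the 30, against 55% of all gene models tested, with a median log2 change of -1.71. Of the 30, 2 were called lower there by edgeR's test, against 1.75% of all tested.

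**Figure D5:**
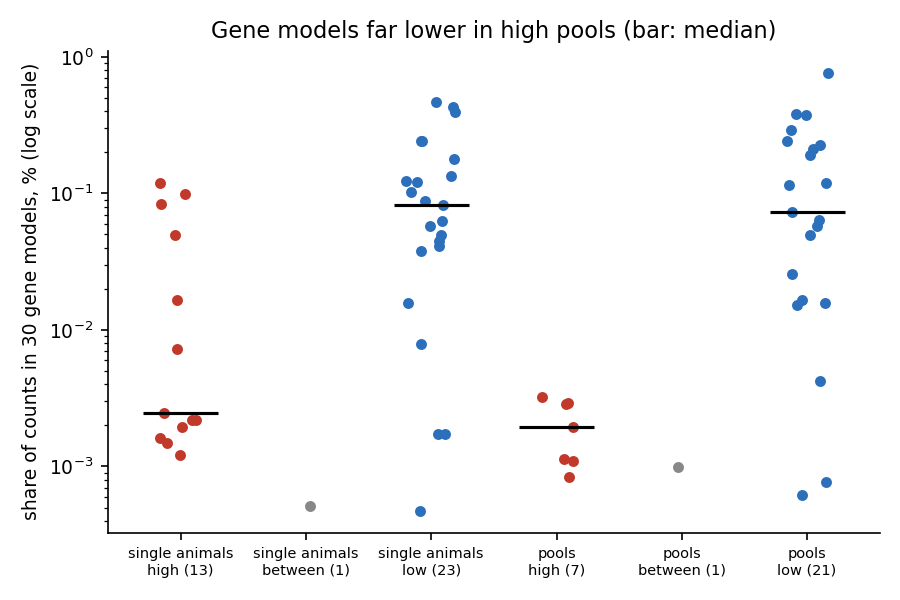
Share of each library's counts (percent, log scale) in the 30 gene models with a log2 change below -4 in pools, by kind of library and NVE20622 state, with a bar at the median where a group has more than 1 library. High pools all stay at or under 0.0032%, low libraries of both kinds spread from 0.000473% to 0.766%, and high single animals spread up to 0.12%.

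A smaller group of higher gene models, also chosen after the values were seen, rested on 1 animal. Of the 311 called gene models with a log2 change above 3 in single animals, 9 had a log2 change below 2 in pools, from -2.59 to 1.14, and none of the 9 was called there. ZT3 individual B, one of the libraries that stood apart, held 7243 counts of these 9, and the other 12 high single animals held 7 to 24 counts. The low animal ZT4 individual C held 1989 counts and the low pools ZT5 pooled E and ZT4 pooled E held 6991 and 2441 counts, so libraries of both states held most of these counts.

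Whether the high-low difference itself differed between pools and single animals was tested with an interaction term over all 64 high or low libraries. No gene model passed the adjusted threshold in either direction with edgeR's quasi-likelihood test (smallest adjusted p = 0.373). At an unadjusted p under 0.05, 288 had a larger and 420 a smaller log2 change in pools. With no difference at all, a share of about 0.05 of the 10915 tested would pass this threshold. DESeq2 called 0 larger and 1 smaller, NVE4301. The median standard error of this difference over all gene models tested was 0.327 on the log2 scale. Over the separated gene models the median difference, pools minus single animals, was 0.72, and over all gene models tested it was 0.0. Standard errors were larger for the separated gene models NVE4527 (0.918), NVE7197 (4.07) and NVE5911 (0.558). Of the 209 separated gene models, 17 had an unadjusted p under 0.05 in this edgeR test.

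Whether high and low single animals followed a different course over the day was tested as a difference in linear trend over ZT hour. No gene model passed the adjusted threshold in either direction with edgeR's test (smallest adjusted p = 0.195). At an unadjusted p under 0.05, 201 had the higher slope in high animals and 310 the lower slope. With no difference at all, a share of about 0.05 of the 10915 tested would pass this threshold. DESeq2 called 0 with the higher slope and 1, NVE5055, with the lower slope. The count depended on the low animal ZT4 individual C, without which 21 gene models had the lower slope in high animals, while without all 4 libraries that stood apart 0 did. It also depended on the hour term. With the hour also as a factor the test called gene models with the lower slope, and their number is given with the other settings below. The median standard error was 0.0713 log2 units per hour, with 13 high animals spread over the 8 hours.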

How the data were processed

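Whole-animal RNA libraries of Nematostella vectensis were analysed from 1 table of whole-number read counts per gene model, as deposited by the authors. Bowtie2 is named in the submitters' processing notes and the genome of Putnam and colleagues in the labels. The Bowtie2 version, counting tool, strand handling and use of molecular identifiers are not given in the sources used here. Reads shared by near-identical gene models may have been split or dropped, and counts may include amplification. Library totals ran from 251647 to 909746 counts with a median of 640195. None of the 2145 pairs of libraries agreed within sampling noise (lowest chi-square per degree of freedom 2.65). Per the labels each library is its own animal or its own pool.

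Counts were tested with edgeR 4.0.16 (limma 3.58.1, R 4.3.3) by the robust quasi-likelihood F test with TMM factors and the hour as a factor. Gene models were kept by edgeR's expression filter (minimum count 10, hour as group, all 66 libraries), which left 10916 of 24265 with 97.2% of counts. NVE20622 stayed in library sizes but out of the p-value adjustment, and NVE9958 counts among the calls but gets no test of its own. P-values were adjusted by the Benjamini-Hochberg method and called below 0.05. The printed standard error is the log2 change divided by the square root of F, which is rough for gene models near 0 in 1 group. CPM used TMM factors over all libraries. Single animals, pools, the state by kind interaction and the state by linear hour interaction had a fit each, with 36, 28, 64 and 36 libraries. The hour term takes up ZT4 and ZT7 in single animals, which hold 1 state. In the fit of pools it takes up ZT4, ZT5, ZT6 and ZT8, which hold no high pool.

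Library measures were compared by permuting states among single animals 100000 times (SciPy 1.17.1, NumPy 2.4.6), adjusted over 4 measures. Named gene models are the 2 with the smallest p in each direction among those past the threshold in each comparison, NVE20622 and NVE9958 aside. NVE4301, NVE5055, NVE636, NVE20318 and NVE12713 fall outside this rule and were named after their values were seen. No identifier matched a reference table of assembly jaNemVect1.1, so planned gene lists were not used here and no sequence is shown. The members, cuts and tests were chosen with earlier results of these data known. The fits were also run on simulated counts with known changes, but the outcome is not given here and nothing is drawn from it. Alternatives covered scaling, filters, DESeq2 1.42.0, limma with voom, the replicate letter as a block, the choice of cuts, thinning, the hour term and left-out libraries.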

Additional observations from a re-analysis of the deposited data

Results flagged for a closer look

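NVE4527 had 528 CPM in ZT12 pooled G, which stood apart from the other 6 high pools, where the next value was 274 CPM and the lowest 116 CPM. Among 13 groups of values compared in this way 1 stood out, and chance gives about 1 in 20. ZT5 pooled G, the pool between the thresholds and outside every comparison, held 0.232% of its counts in the separated gene models. The highest low pool held 0.11% and the lowest high pool 1.25%. Of the 209 separated gene models 174 had a count in it, and its median one stood at 9.42% of the mean level in high single animals.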

How the results depend on the processing

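The number of gene models higher in high single animals lay between 763 and 1231 under the other settings, apart from 620 with a filter that took the state as group and tested 7857 gene models. Those lower were 91 with no filter. The replicate letter as a replicate block gave 763 higher and 82 lower in single animals, and 1265 higher and 484 lower in pools. The letters do not pair animals per the labels. Over 144 pairs with the same letter the correlation of deviations from the hour and state means ran from -0.38 to 0.71 (median 0.04). Of 36 animals, 12 correlated best with their own letter, and no share expected without pairing is set beside this count. Gene models lower in high pools were 251 with no filter and 257 with NVE20622 split at 30 counts. DESeq2 called 1 gene model lower in each interaction, and the trend difference with the hour also as a factor called 14. The cause of these shifts was not tested. All 103 values of single named gene models kept their direction, and their call wherever the fit gave an adjusted p. NVE7197 had a value under 12 of these settings and the others under 13. Leaving out each library in turn gave 865 to 1087 higher and 115 to 237 lower in single animals, and 959 to 1265 higher and 155 to 481 lower in pools. The interaction with kind gave 0 to 1 larger (NVE636 without ZT9 individual B) and 0 to 0 smaller. The trend difference gave 0 to 0 higher and 0 to 21 lower (21 without ZT4 individual C, NVE20318 without ZT5 individual B or D, NVE12713 without ZT8 individual D). The difference in total counts was 83930 to 115600, that in gene models detected 442 to 562, that in the share of the 100 most abundant -3.43 to -2.61 percentage points and that in hour 0.0145 to 0.764 h.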

Other observations

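Single animals with different letters were not equally often high, with 1 high and 8 low animals for letter A, 5 and 4 for B, 2 and 7 for C beside 1 in between, and 5 and 4 for D. The letters have no stated meaning and this was not tested. Outside the gene models higher in high animals, high single animals had 13820 ± 510 gene models with a count after thinning and low ones 13600 ± 337 (SD, n = 13 and 23). The gene models called lower in high animals together took 2.85, 3.46 and 4.29% of counts in the lowest, median and highest high single animal, against 3.53, 4.19 and 4.93% in low ones.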
